A study of Mus musculus with 6 samples.

Results

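The genes described here encode P4-ATPases, the phospholipid flippases. They were chosen by name, as 9 genes of the family (Atp8a1, Atp8a2, Atp8b1, Atp8b2, Atp9a, Atp9b, Atp10a, Atp10b and Atp10d), each read from a probe set with exactly 1 gene symbol, and all 9 were found among the 22180 genes of the table. Each had a single such probe set, so the choice of the brightest probe set over the 6 arrays decided nothing for them. The only measured value the rule used was that mean signal over all arrays. The names, however, were selected with differences between the lines on these arrays known, the fall of Atp10b among them, so the counts over the list are a description.

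P4-ATPases are membrane pumps that use ATP to move phospholipids from the outer or luminal leaflet of a membrane to the cytosolic leaflet. They keep phosphatidylserine and phosphatidylethanolamine on the cytosolic side of the plasma membrane and take part in vesicle budding from the Golgi and endosomes. Most of them leave the endoplasmic reticulum only together with a beta subunit of the CDC50 family, of which Tmem30a is the widely expressed member, whereas Atp9a and Atp9b are known to do without it. Melanocytes build their pigment in melanosomes, organelles that mature with cargo delivered from endosomes.

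The data are 6 Affymetrix arrays of cultured immortal mouse melanocytes, 3 of a line heterozygous for Sox10 (Sox10LacZ/+; Ink4a-Arf null) and 3 of the line melan-Ink4a-Arf-1 (also labelled melan-a; Cdkn2a tm1RDp/tm1RDp), called wild type here for its intact Sox10. Sox10 is a transcription factor of the neural crest and of the pigment and glial cells that arise from it. Both lines lack Ink4a-Arf (Cdkn2a), came from mice backcrossed to C57BL/6J, and were grown in medium with cholera toxin (200 pM), a phorbol ester (200 nM) and fetal bovine serum (10%). The Sox10LacZ/+ line was derived from mice 3 days old, and the comparison asks which genes depend on the second copy of Sox10.

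Each genotype was represented by 1 cell line, so genotype and line cannot be told apart. Replicates are numbered in the labels without a statement that they were separate cultures, and p-values then measure only the spread between these arrays, which may be technical. Array medians lay between 5.72 and 5.79 on the log2 scale. Wild-type replicate 2 stood apart, with 261 genes that lay 2-fold or more from the average of wild-type replicates 1 and 3, against 0 to 54 genes for the other 5 arrays. Of 12 melanocyte markers, 0 were dim in both lines, where dim means a mean under the 40th percentile of probe sets (a log2 signal of 5.21). The summed signal of those markers (log2 values turned back to linear units and added) was 36365 to 41968 in the wild-type arrays and 35758 to 36452 in the heterozygous arrays. That sum is carried by the brightest of them, and single markers did differ: 5 of the 12 fell and 2 rose in the heterozygous line by the test described next, among them Tyr (−2.10) and Dct (−0.68) lower and Kit (2.29) higher on the log2 scale. Sox10 itself, also among the 12, read 9.91 ± 0.10 in the wild type and 9.73 ± 0.05 in the heterozygous line (SD, n = 3 each). Its log2 difference of −0.18 did not pass (limma adjusted p 0.213), and its heterozygous signal was 88.2% of wild type.

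Of the 9 flippase genes, Atp10a and Atp8a1 rose in the heterozygous line, Atp10b and Atp9a fell, and 5 did not pass the test. The test was limma across all genes, with a threshold of 0.05 on the p-value after Benjamini-Hochberg adjustment, and all 4 that passed differed at least 2-fold. Over all 22180 genes, 13.4% passed (7.46% higher and 5.92% lower), and 3.53% passed with at least a 2-fold difference. Values of the 2 lines were fully separated in 5 of the 9, against 31.6% of all genes. The median log2 difference of the 9 genes (heterozygous minus wild type) was 0.04, close to the 0.001 of all genes. Their median size of difference without regard to sign was 0.31, and that of all genes 0.12.

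**Figure D1:**
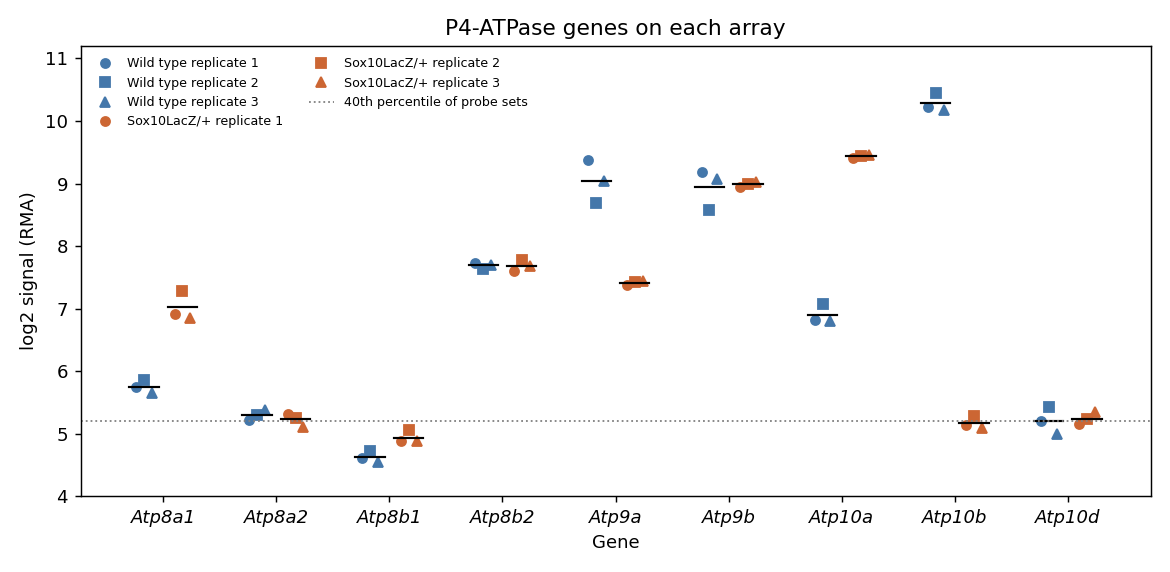
Log2 signal (vertical axis) of the 9 flippase genes on each of the 6 arrays, with wild type in blue and Sox10LacZ/+ in orange, a marker shape for each replicate and a black bar at the mean of 3 arrays. The lines stand apart for Atp8a1, Atp9a, Atp10a and Atp10b, and by less for Atp8b1, which is dim and did not pass. The dotted line at 5.21 marks the 40th percentile of all probe sets. Heights of different genes come from different probe sets and are not to be compared.

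The class of Atp10 genes held the largest fall and the largest rise of the family. Atp10b encodes a flippase of late endosomes and lysosomes that is reported to move glucosylceramide and phosphatidylcholine. Its log2 signal was 10.22, 10.45 and 10.17 in wild-type replicates 1 to 3 and 5.13, 5.28 and 5.09 in the heterozygous replicates. Every heterozygous array lay about as low as the dim probe sets of the array, and every wild-type array lay far above them. The means were 10.28 ± 0.15 and 5.17 ± 0.10 (SD, n = 3 each), a log2 difference of −5.11 (SE 0.10, 95% confidence interval −5.34 to −4.88, limma adjusted p 7.8e-08). The heterozygous signal was thus 2.89% of the wild-type signal, and 15 genes of the table had a larger difference in either direction. Because the heterozygous mean was in the dim range, the size of this fall depends on the background of the array.

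Atp10a encodes a flippase of the plasma membrane that moves phosphatidylcholine. Its log2 signal was 6.82, 7.07 and 6.81 in the wild-type replicates and 9.41, 9.45 and 9.46 in the heterozygous replicates. The heterozygous arrays lay within a narrow band well above all wild-type arrays. The means were 6.90 ± 0.15 and 9.44 ± 0.02 (SD, n = 3 each), a log2 difference of 2.54 (SE 0.09, interval 2.33 to 2.75, adjusted p 9.33e-07) or 5.81-fold. Atp10a and its paralog Atp10b therefore moved in opposite directions, with intervals on either side of 0.

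Atp10d, the third gene of the class in the mouse, encodes a glucosylceramide flippase of the plasma membrane. RefSeq annotates it as a transcribed pseudogene in GRCm38.p6, which is built from C57BL/6J, the strain to which these mice were backcrossed. Its log2 signal was 5.20, 5.42 and 5.0 in the wild-type replicates and 5.16, 5.23 and 5.34 in the heterozygous replicates. The arrays of the lines overlapped around the 40th percentile of all probe sets. The log2 difference was 0.04 (SE 0.11, interval −0.23 to 0.30, adjusted p 0.892), and its sign turned when wild-type replicate 3 or heterozygous replicate 3 was left out (−0.07 and −0.01).

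Atp9a and Atp9b encode the CDC50-independent flippases of endosomes and the trans-Golgi network. Atp9a had a log2 signal of 9.38, 8.69 and 9.05 in the wild-type replicates and 7.38, 7.42 and 7.44 in the heterozygous replicates. All heterozygous arrays were lower than the lowest wild-type array, replicate 2. The means were 9.04 ± 0.34 and 7.41 ± 0.03 (SD, n = 3 each), a log2 difference of −1.62 (SE 0.16, interval −1.98 to −1.26, adjusted p 0.000297), and the heterozygous signal was 32.5% of wild type. Without wild-type replicate 2 the difference was −1.80.

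Atp9b had a log2 signal of 9.19, 8.58 and 9.07 in the wild-type replicates and 8.95, 8.99 and 9.02 in the heterozygous replicates. The heterozygous arrays fell inside the wild-type range, which wild-type replicate 2 widened downwards for Atp9b as it did for Atp9a. Relative to the average of wild-type replicates 1 and 3, that array read −0.52 for Atp9a and −0.54 for Atp9b. The log2 difference between lines was 0.04 (SE 0.15, interval −0.30 to 0.38, adjusted p 0.902). It became −0.14 without wild-type replicate 2 and −0.07 with arrays weighted by limma, and did not pass in either case.

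The Atp8a genes encode flippases for phosphatidylserine and phosphatidylethanolamine, of which Atp8a1 is widely expressed and Atp8a2 is best known from neurons and photoreceptors. Atp8a1 had a log2 signal of 5.74, 5.85 and 5.64 in the wild-type replicates and 6.92, 7.29 and 6.86 in the heterozygous replicates. The lines were separated by more than the spread within either of them, and heterozygous replicate 2 was the highest array. The means were 5.75 ± 0.10 and 7.02 ± 0.23 (SD, n = 3 each), a log2 difference of 1.28 (SE 0.12, interval 0.99 to 1.56, adjusted p 0.000312) or 2.42-fold. Atp8a2 had 5.22, 5.30 and 5.38 in the wild-type replicates and 5.32, 5.25 and 5.11 in the heterozygous replicates. These values overlapped near the 40th percentile, with a log2 difference of −0.07 (SE 0.09, interval −0.27 to 0.13, adjusted p 0.692).

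Atp8b1 encodes the flippase whose loss causes familial intrahepatic cholestasis. Its log2 signal was 4.62, 4.73 and 4.54 in the wild-type replicates and 4.88, 5.05 and 4.88 in the heterozygous replicates. The lines did not overlap, but all 6 values were in the dim range. The log2 difference was 0.31 (SE 0.09, interval 0.11 to 0.51, adjusted p 0.0536), which did not pass; without wild-type replicate 2 it was 0.36 and passed (adjusted p 0.0247; 0.0247 to 0.192 over all alternatives). Atp8b2, a phosphatidylcholine flippase gene of the plasma membrane, had 7.73, 7.63 and 7.70 in the wild-type replicates and 7.60, 7.77 and 7.67 in the heterozygous replicates. Its arrays overlapped well above the dim range, and the log2 difference was −0.01 (SE 0.08, interval −0.19 to 0.17, adjusted p 0.961), with the sign turned to 0.02 by median centring.

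**Figure D2:**
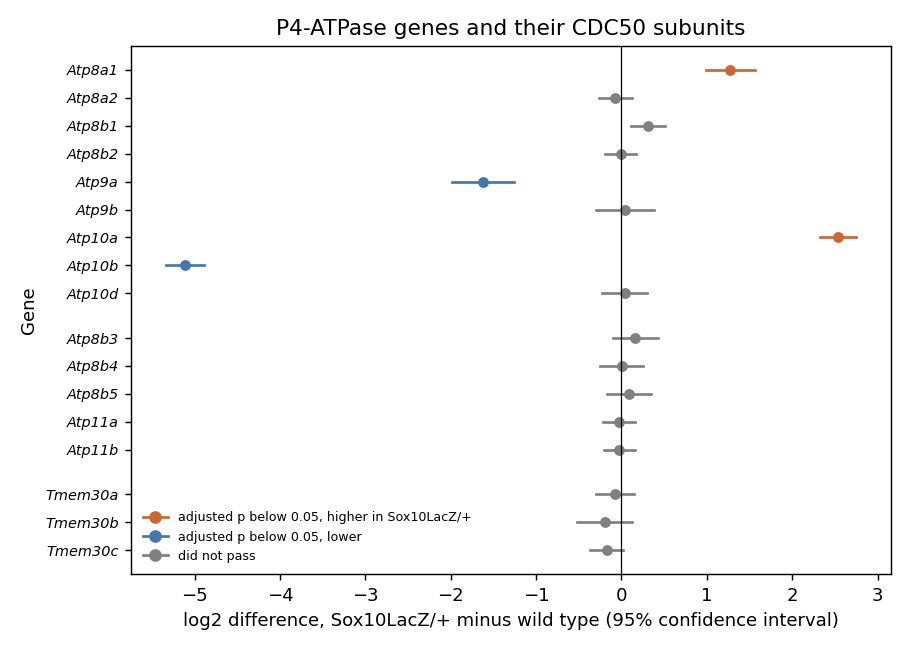
Log2 difference, Sox10LacZ/+ minus wild type (horizontal axis), with its 95% confidence interval from limma for the 9 flippase genes, 5 further P4-ATPase genes and 3 CDC50 genes. Intervals of Atp10b and Atp9a lie below 0 and those of Atp10a and Atp8a1 above it, at an adjusted p below 0.05; genes in grey did not pass.

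Further genes of the family were measured beside these 9. Atp8b3, Atp8b4, Atp8b5, Atp11a and Atp11b all had overlapping arrays. In limma 0 of the 5 passed, also at an unadjusted p below 0.05 (0 of 5), which 5533 of all 22180 genes reached. Atp11a and Atp11b encode flippases for phosphatidylserine and phosphatidylethanolamine. The Atp11a signal was 10.57 ± 0.10 in the wild type and 10.55 ± 0.05 in the heterozygous line (SD, n = 3 each), a log2 difference of −0.03 (interval −0.21 to 0.16), whose sign turned under median centring. The Atp11b difference was −0.02 (interval −0.20 to 0.15), and its sign turned likewise. The differences of Atp8b3, Atp8b4 and Atp8b5 were 0.16, 0.002 and 0.09, with Atp8b4 and Atp8b5 dim in both lines. Over all 14 measured P4-ATPase genes, 2 rose, 2 fell and 10 did not pass, or 28.6% that passed against 13.4% of all genes. Every gene that passed is among the 9 chosen with differences on these arrays known, so this share too is only a description.

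None of the 3 CDC50 genes passed (0 of 3, against 13.4% of all genes). At an unadjusted p below 0.05 it was also 0 of 3, against 5533 of all 22180 genes. Tmem30a, the beta subunit of most flippases, had log2 signals of 11.28, 11.03 and 11.33 in the wild-type replicates and 11.21, 11.08 and 11.13 in the heterozygous replicates. These arrays overlapped, with a difference of −0.07 (SE 0.10, interval −0.30 to 0.15, adjusted p 0.723). Tmem30b differed by −0.20 and Tmem30c by −0.17, with adjusted p of 0.456 and 0.248.

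**Figure D3:**
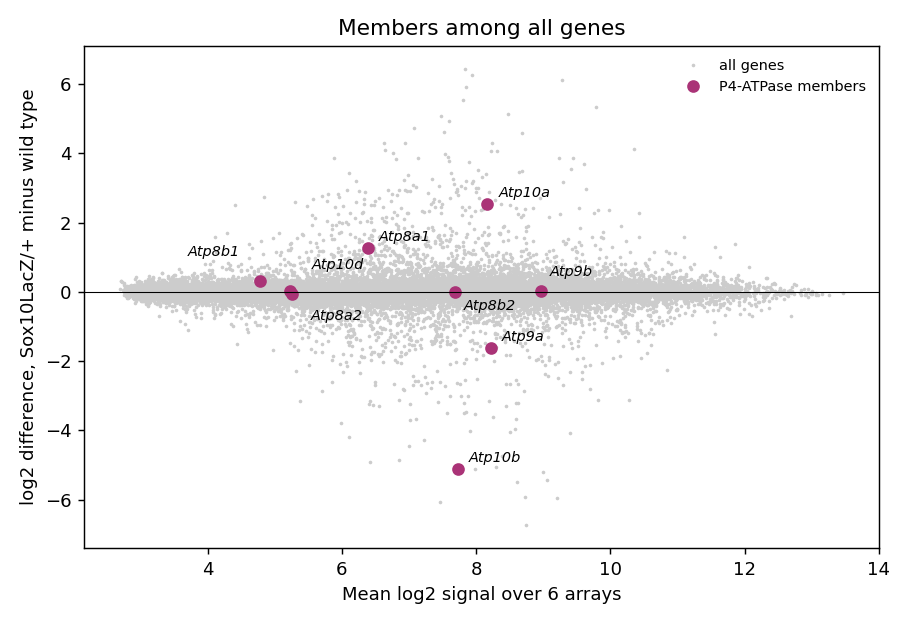
Log2 difference, Sox10LacZ/+ minus wild type (vertical axis), against the mean log2 signal over 6 arrays (horizontal axis) for all 22180 genes in grey and the 9 flippase genes in purple. Atp10b at −5.11 lies at the lower edge of the cloud and Atp10a at 2.54 in its upper part, while 5 members lie in the dense band around 0.

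Upstream sequences are shown for the called members that RefSeq promoter windows of build GRCm38.p6 covered, so that an annotated start of these genes can be read beside their values. Atp10b, the member with the largest difference, had no window. Windows were matched for 4 of the 9 genes (Atp8a1, Atp8b2, Atp9a and Atp10a); the other 5 were Atp8a2, Atp8b1, Atp9b, Atp10b and Atp10d. Each window is the 250 bases before an annotated start, 5′ to 3′ on the gene's strand. Capitals mark matches, on either strand, to the SOX-type motifs ACAAAG and ACAATG or to the E-box motifs CACGTG and CATGTG. The Atp8a1 window is chr5:67847432-67847681 (minus strand), and that of Atp10a, its only one, is chr7:58657952-58658201 (plus strand). The start that follows the Atp10a window, at 58658202, lies inside the span of the gene, which begins at 58656142. The Atp8a1 start, at 67847431, also lies inside the span of its gene, whose upstream end is at 67847484. The Atp9a windows are chr2:168742137-168742386, its most upstream listed start, and chr2:168734340-168734589, an internal start (minus strand). Even the most upstream Atp9a start, at 168742136, lies inside the span of the gene, whose upstream end is at 168742370. Most of the bases printed for it therefore lie inside that span. Atp9a has 4 windows in the table, and the internal one is shown because it was the only one of them with a SOX-type match, a choice made after that was seen. Of the 2 Atp9a windows not printed, one held 0 matches and the other 1 match to CATGTG.
Atp8a1: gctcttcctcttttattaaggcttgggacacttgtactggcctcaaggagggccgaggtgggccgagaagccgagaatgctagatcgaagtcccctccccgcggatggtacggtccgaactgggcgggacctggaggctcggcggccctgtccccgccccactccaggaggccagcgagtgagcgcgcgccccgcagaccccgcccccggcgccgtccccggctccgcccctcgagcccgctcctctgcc
Atp10a: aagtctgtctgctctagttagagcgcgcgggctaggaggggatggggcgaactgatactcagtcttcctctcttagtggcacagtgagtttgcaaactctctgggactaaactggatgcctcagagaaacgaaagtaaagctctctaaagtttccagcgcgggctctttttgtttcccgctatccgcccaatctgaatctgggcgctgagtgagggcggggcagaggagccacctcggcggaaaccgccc
Atp9a upstream start: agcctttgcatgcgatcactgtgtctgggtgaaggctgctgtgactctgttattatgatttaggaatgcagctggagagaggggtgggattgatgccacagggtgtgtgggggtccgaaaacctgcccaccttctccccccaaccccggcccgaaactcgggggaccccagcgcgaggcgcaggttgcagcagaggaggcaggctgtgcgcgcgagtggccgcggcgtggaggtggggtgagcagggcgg
Atp9a internal start: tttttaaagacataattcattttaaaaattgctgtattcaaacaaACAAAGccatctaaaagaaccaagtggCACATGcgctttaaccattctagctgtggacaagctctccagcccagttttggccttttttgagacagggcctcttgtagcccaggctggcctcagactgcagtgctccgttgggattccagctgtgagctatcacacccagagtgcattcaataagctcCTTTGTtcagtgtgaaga

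The internal Atp9a window held 2 matches to ACAAAG, 1 on each strand, and 1 match to CATGTG on the opposite strand. The first windows of Atp8a1, Atp10a and Atp9a held 0 matches to any of the 4 motifs. Among all 32841 windows of this length, 25.2% held at least 1 SOX-type motif and 17.6% at least 1 E-box motif, so matches of this kind are common. The GC content was 70.4% for Atp8a1, 55.6% for Atp10a, 64% for the upstream Atp9a window and 44.4% for the internal one, against a median of 52.4% over all windows. None of these letters says whether a factor binds there.

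The 4 genes that passed lie on different chromosomes, Atp10b on chromosome 11 (43012164 to 43262285), Atp10a on chromosome 7 (58656142 to 58830244), Atp9a on chromosome 2 (168634438 to 168742370) and Atp8a1 on chromosome 5 (67618139 to 67847484), in GRCm38.p6. For each, the 5 measured protein-coding genes on either side were read from the same fit. Of 10 neighbours, 0 passed for Atp8a1 and 0 for Atp9a, against 13.4% of all genes. Beside Atp10b, 1 of 10 passed, the GABA receptor gene Gabrb2, which rose from 5.23 to 5.51, just above the dim range (log2 difference 0.28, adjusted p 0.0465). Beside Atp10a, 1 of 10 passed, the melanosomal transporter gene Oca2, which fell from 10.83 to 9.95 (log2 difference −0.88, adjusted p 0.000382) while Atp10a rose. Ndn, an imprinted gene on the other side of Atp10a, differed by −1.02 and did not pass (adjusted p 0.0642), and Ube3a, its nearest measured neighbour on that side, differed by 0.10 (adjusted p 0.493).

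All 3 Atp10 genes lie beside GABA receptor subunit genes. Gabra5 and Gabrg3 were the nearest measured neighbours of Atp10a on one side, Gabrb2 and Gabra6 those of Atp10b, and Gabrb1, Gabra4 and Gabra2 were within 5 genes of Atp10d. Differences of these 7 receptor genes lay between −0.06 and 0.28, while the Atp10 genes between them spanned −5.11 to 2.54. All of the receptor genes but Gabrb2 were dim in both lines, and Gabrb2 lay just above that range (5.23 and 5.51). A fall could therefore scarcely show in them, and the contrast with the Atp10 genes says little.

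**Figure D4:**
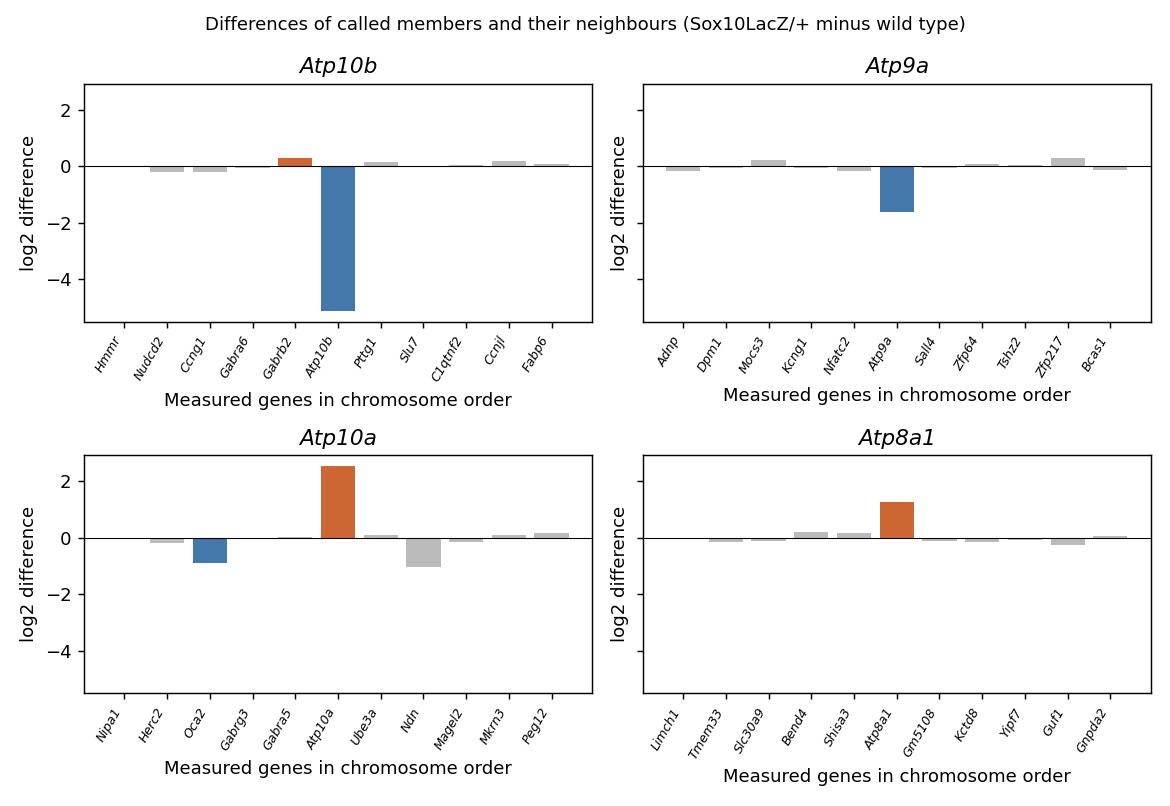
Log2 difference, Sox10LacZ/+ minus wild type (vertical axis), of each called flippase gene and its 5 measured protein-coding neighbours on either side in chromosome order (horizontal axis, not to scale in distance). Orange and blue bars passed the test as higher and lower. The flippase gene is the tallest bar of each panel, with Gabrb2 beside Atp10b and Oca2 near Atp10a the only neighbours that passed.

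The genes with profiles most like that of Atp10b were Pcolce2, Mcoln3, Uty and Grem1. Likeness was the root mean square distance over the 6 arrays between values centred on each gene's own mean, and was 0.14, 0.22, 0.26 and 0.26 on the log2 scale. Pcolce2, whose protein enhances procollagen processing, went from 10.83 ± 0.36 to 5.77 ± 0.17 (SD, n = 3 each). Mcoln3, an endolysosomal cation channel gene, went from 11.77 ± 0.27 to 6.35 ± 0.28, and Grem1, a BMP antagonist gene, from 10.75 ± 0.32 to 6.01 ± 0.18. Uty is Y-linked and went from 8.88 ± 0.26 to 3.97 ± 0.11, so a difference in sex chromosomes between the lines cannot be told apart from genotype. All of these profiles rest on the same split of 3 against 3 arrays.

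Genes that act with flippases or against them were read from lists of the pathway. Of 8 partners in Golgi and endosomal traffic, Mon2, the scaffold gene whose protein works with the DOP1 proteins, rose and 7 did not pass. Mon2 had log2 signals of 10.29, 10.26 and 10.25 in the wild-type replicates and 10.61, 10.62 and 10.63 in the heterozygous replicates, a difference of 0.35 (SE 0.07, adjusted p 0.0106). Its arrays were far apart for their spread, although its adjusted p was 0.0501 and 0.0587 without heterozygous replicates 2 and 3 (0.0026 to 0.0587 over all alternatives). The share of the list that passed, 12.5%, was close to the 13.4% of all genes. Its median difference was 0.18, and 5 of its 8 genes had non-overlapping arrays, against 31.6% of all genes.

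Scramblases and other lipid-scrambling proteins let phospholipids pass between leaflets without ATP. Of 16 measured genes, Plscr4 rose, Plscr2 and Plscr1 fell and 13 did not pass, so 18.8% passed against 13.4% of all genes. Plscr2 had log2 signals of 11.52, 11.44 and 11.34 in the wild-type replicates and 7.41, 7.41 and 7.29 in the heterozygous replicates, a difference of −4.06 (SE 0.08, adjusted p 8.32e-08). Of the flippase, scramblase and other pathway genes listed, Atp10b alone had a larger difference. Plscr1 differed by −1.25 (SE 0.08) and Plscr4 by 1.46 (SE 0.21). Ano6, the calcium-activated scramblase gene that exposes phosphatidylserine, differed by 0.19 and did not pass (adjusted p 0.22), nor did Xkr8, the caspase-activated scramblase gene (0.19, adjusted p 0.125). Both were named after their values were seen. Without wild-type replicate 2, 5 of these genes were lower and passed.

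Of 11 ABC transporter genes for lipid export, Abca1 and Abcb1b rose, Abca2 fell and 8 did not pass (27.3% passed, against 13.4% of all genes). Abca1, which exports cholesterol and phospholipid to lipid-poor apolipoproteins, had 8.68, 8.50 and 8.72 in the wild-type replicates and 9.95, 10.10 and 10.09 in the heterozygous replicates. The difference was 1.41 (SE 0.09, adjusted p 2.4e-05), with no overlap. Abcb1b (0.34, adjusted p 0.0336) and Abca2 (−0.28, adjusted p 0.0497) lay near the threshold; with single arrays left out, Abcb1b passed in 1 of 6 cases and Abca2 in 1 of 6.

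Of 11 measured genes of phospholipid synthesis, which covers phosphatidylserine, phosphatidylethanolamine and phosphatidylcholine, Chpt1, Pemt and Etnk1 rose, Pcyt1b fell and 7 did not pass (36.4% passed, against 13.4% of all genes). Pcyt1b, a gene of phosphatidylcholine synthesis, had 7.89, 8.79 and 7.62 in the wild-type replicates and 6.70, 6.64 and 6.56 in the heterozygous replicates, a difference of −1.47 (SE 0.26, adjusted p 0.00791). All heterozygous arrays were lower, and wild-type replicate 2 was the highest array. Chpt1, the choline phosphotransferase gene, rose by 0.51, Pemt, which methylates phosphatidylethanolamine, by 0.46 and the ethanolamine kinase gene Etnk1 by 0.33 (adjusted p 0.00693, 0.00752 and 0.0358). Etnk1 did not pass without wild-type replicate 1 or any 1 of the heterozygous replicates (adjusted p between 0.0116 and 0.133 under the alternatives).

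Of 12 genes for phosphatidylserine receptors and the proteins that bridge to them, Havcr2 rose by 0.70 (adjusted p 0.0117), the receptor kinase gene Tyro3 fell (−0.37, adjusted p 0.0466) and 10 did not pass. The share that passed, 16.7%, was close to the 13.4% of all genes. Tyro3 kept its call only without wild-type replicate 3 among the arrays left out singly (0.0229 to 0.17 over all alternatives), and Havcr2 lost it without heterozygous replicate 3 (adjusted p 0.055, within a range of 0.00188 to 0.055). Wild-type replicate 2 was far from the other wild-type arrays for Mertk and Pros1, at 9.34 against 7.80 and 7.52 and at 6.86 against 9.10 and 9.23.

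**Figure D5:**
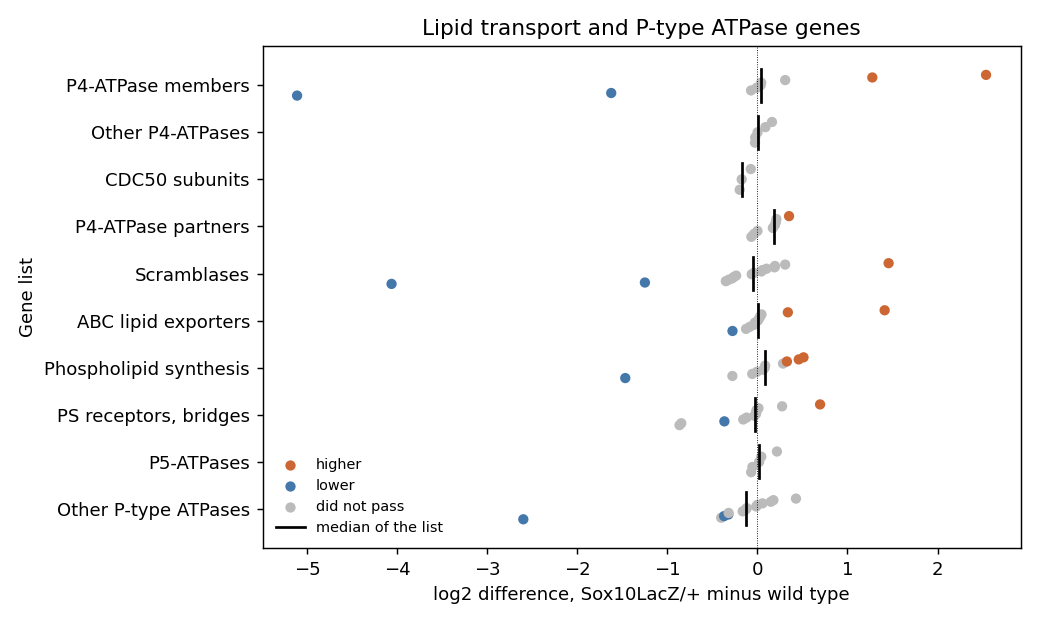
Log2 difference, Sox10LacZ/+ minus wild type (horizontal axis), of every measured gene in each list (vertical axis), in orange or blue where it passed as higher or lower and in grey where it did not, with a black bar at the list's median. The medians lie between −0.17 and 0.18, while Atp10b and Plscr2 lie at −5.11 and −4.06.

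Markers of other cell types moved between the lines beside these genes, and their counts stand against 7.46% of all genes higher and 5.92% lower. The summed signal of 9 fibroblast markers was 706 to 751 in the wild-type arrays and 5342 to 5545 in the heterozygous arrays, with 4 of 9 higher, by 1.24 (Col1a2) to 5.92 (Dcn, the decorin gene) on the log2 scale. Most of the heterozygous sum came from Dcn, Fbln1 and Pdgfrb. The other 5 did not pass: Col1a1 (−0.20), Thy1 (−0.14), Lum (−0.10), Col3a1 (0.10) and Pdgfra (0.15). The summed signal of 8 endothelial and smooth muscle markers was 519 to 552 against 5927 to 6270, with 4 of 8 higher. In the heterozygous arrays, most of that second sum was the smooth muscle actin gene Acta2, which rose from 7.11 to 12.45 on the log2 scale. The others that rose were the smooth muscle genes Tagln (0.94) and Cnn1 (0.44) and the endothelial gene Vwf (0.38). The endothelial genes Pecam1, Cdh5 and Kdr and the smooth muscle gene Myh11 did not pass. The sum of 6 Schwann cell markers was 5093 to 6262 against 823 to 877, with 3 of 6 lower. Those were Gjc3 (−5.93), the brightest of the 6 in the wild type, Ngfr (−3.61) and S100b (−2.70). Mbp (−0.12), Egr2 (−0.16) and Cdh19 (−0.82) did not pass. Among 7 keratinocyte markers 0 passed by limma, with sums of 519 to 666 and 567 to 638. Of those markers 2 had an unadjusted p below 0.05, as had 5533 of all 22180 genes. Of 7 leukocyte markers 2 were higher (sums of 381 to 422 against 573 to 619), Cd68 by 1.32. Dim in both lines were 3 of the 7 leukocyte markers, Ptprc among them, 3 of the 7 keratinocyte markers, 1 of the 9 fibroblast markers (Lum) and 1 of the 8 endothelial and smooth muscle markers (Kdr). The part of such differences in the flippase results was not tested, and in bulk RNA fewer cells of a type and less RNA per cell cannot be told apart.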

How the data were processed

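RNA of 6 samples, 3 of each line, was labelled with biotin for Affymetrix arrays. The deposited values are log2 signals, 1 per probe set. RMA (background correction, normalization between arrays and summary per probe set) and Partek are the tools of the authors that the submitters' processing notes name, without versions or settings. Of 41345 probe sets, 23521 carried 1 gene symbol, 1814 several, and 16010 are unnamed here. For genes with several, the brightest on average over the 6 arrays was taken, leaving 22180 genes, dim ones included. An array gives no counts, so the number of arrays limits the precision.

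Heterozygous and wild-type arrays were fitted by limma 3.58.1 (R 4.3.3; lmFit, then eBayes, 2-sided, 7.87 total degrees of freedom, no replicate block) over all genes, with Benjamini-Hochberg adjustment, and tested on simulated data. The members and the lists were chosen with earlier results of these data known. The text names all members, the further listed P4-ATPase and CDC50 genes, and of each other pathway list up to 4 genes that passed, by size, or the 2 brightest; chromosome neighbours, cell type markers, Mertk and Pros1 were named after their values were seen. No set test was run. Alternatives were other normalizations, a dim filter, averaged probe sets, other variance models, array weights, a replicate block and single arrays left out. Names and positions came from GEO's platform annotation and RefSeq (GRCm38.p6).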

Additional observations from a re-analysis of the deposited data

How the results depend on the processing

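Atp10b, Atp10a, Atp9a and Atp8a1 kept direction and call under all 14 alternatives, with adjusted p up to 5.06e-06, 3.1e-05, 0.00296 and 0.00349. Replicate numbers shared no deviations (r of 0.007, 0.016 and −0.004 across genes). The replicate block left 2 members higher and 2 lower, gave 1381 higher and 1131 lower genes in all, and ended the calls of Abcb1b, Abca2, Etnk1 and Atp2c1, with 1 higher and 0 lower among ABC exporters. The 1654 higher and 1313 lower genes became 979 to 2308 and 779 to 1914 with single arrays left out. Atp8b1 passed with array weights (0.31), and ranged from 0.25 to 0.36 with single arrays left out. Signs near 0 turned for Atp8b2 with median centring (0.0195; −0.0547 to 0.0327 over single arrays left out), Atp9b with array weights (−0.0742; −0.139 to 0.163) and Atp10d (−0.067 to 0.142). Likewise they turned for Atp8b4 (−0.0842 to 0.0856), Atp8b5 (−0.0239 to 0.17), Atp13a3 (−0.0412 to 0.0788), Atp11a (0.00272 with median centring, 0.00842 with array weights; −0.0642 to 0.0322) and Atp11b (0.00451 and 0.0174; −0.0771 to 0.0106). With array weights, 2 partners were higher, and 5 scramblase, 2 synthesis and 2 receptor genes lower. Median centring left 0 ABC exporters and 0 receptor genes lower, quantile normalization 0 receptor genes lower, and eBayes with trend gave 1 higher gene among other P-type ATPases. Single arrays left out gave 0 to 1 partners higher, 2 to 5 scramblases lower, 1 to 2 ABC exporters higher and 0 to 1 lower, and 1 to 2 synthesis genes lower. They gave 0 to 1 receptor genes in either direction, and 0 to 1 higher and 0 to 3 lower among other P-type ATPases. The cause of these changes was not tested. Atp8b1, Atp8b4 and Atp8b5 have no value with dim genes left out. Median centring moved the median difference of all genes from 0.001 to 0.03.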

Other observations

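Pumps of the wider P-type ATPase family were read from the same fit. Among 14 measured copper, calcium, sodium and proton pump genes, Atp2b4, Atp2a1 and Atp2c1 fell and 11 did not pass (21.4% passed, against 13.4% of all genes). Atp2c1, the calcium and manganese pump gene of the Golgi, had log2 signals of 10.03, 9.98 and 10.03 in the wild-type replicates and 9.70, 9.66 and 9.71 in the heterozygous replicates, a difference of −0.32 (SE 0.07, limma adjusted p 0.0167; 0.00701 to 0.0783 over the alternatives). Atp2a1, a sarcoplasmic calcium pump gene, differed by −0.37 (adjusted p 0.0252) and passed in 3 of 6 fits with single arrays left out (0.0169 to 0.108 over the alternatives).

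Atp2b4, a plasma membrane calcium pump gene, had 8.80, 5.84 and 8.72 in the wild-type replicates and 5.12, 5.12 and 5.33 in the heterozygous replicates. Wild-type replicate 2 lay closer to the heterozygous arrays than to the other wild-type arrays. The difference was −2.60 (SE 0.70, adjusted p 0.0466) and without that array −3.57, while any other single array left out ended the call (adjusted p from 8.64e-07 to 0.154 under the alternatives). Atp7a, the copper pump gene that supplies melanosomal tyrosinase, differed by 0.15 and did not pass (adjusted p 0.465); it was named after its value was seen. Of 5 P5-type ATPase genes, 0 passed by limma, against 13.4% of all genes. An unadjusted p below 0.05 was found for 1 of the 5, and for 5533 of all 22180 genes. The brightest, Atp13a3 and Atp13a1, differed by 0.02 and 0.22.

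Atp11a had another probe set with 1 symbol beside the brighter one used. It read 7.18 ± 0.13 in the wild type and 7.05 ± 0.11 in the heterozygous line (SD, n = 3 each).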
